A study of Mus musculus with 6 samples.

Results

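The alpha-2,8-sialyltransferases, the St8sia family, are Golgi enzymes that add a sialic acid to a sialic acid already at the end of a sugar chain. All 6 genes of the family, taken by name as St8sia1 to St8sia6, were measured, each by 1 probe set, out of 909 named genes and 1246 probe sets on the array. The data are 6 Affymetrix expression arrays of total liver RNA from male mice, 3 labelled diabetic, with insulin-deficient diabetes, and 3 labelled wildtype and healthy. The labels state neither strain nor age, nor how the diabetes arose. The study set diabetic against wildtype liver to ask about enzymes of glycan synthesis. The members were chosen by gene family, not by their values, though with earlier results of these data known.

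Sialyltransferases take the activated sugar CMP-sialic acid and place it on glycoproteins or glycolipids. Most make a single terminal sialic acid. The St8sia enzymes build on that, making either short chains, as on the brain gangliosides, or the long polymer polysialic acid, which is best known on the neural cell adhesion molecule NCAM and lessens the adhesion of the cells that carry it. The family as a whole is best known from the nervous system, and healthy hepatocytes cap their secreted glycoproteins mainly with enzymes of the other sialyltransferase families.

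None of the 6 genes was called different between diabetic and wildtype liver. St8sia4 had the highest difference, 0.18 on the log2 scale, and St8sia2 the lowest, -0.20; these are the family's polysialic acid synthases. The limma adjusted p was 0.928 for both. Signals were low for most of the family: 5 of 6 members lay below the median of all probe sets, and 4 of these lay in the dimmest 13.4% of the array. The values are log2 values made by the authors with RMA, a method that removes background, puts the arrays on a common scale and joins the probes of a probe set into 1 value. Without detection calls, dim signal and background could not be told apart, and a difference can be hidden there.

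Array medians lay between 4.93 and 5.06. Wildtype 2 stood apart, with 40 probe sets more than 0.5 above or below every other array, against 1 to 21 for the others, and each member is therefore also given without it. The 8 measured hepatocyte markers of 12 all lay above the array median, while Alb, Apoa1, Trf and Ttr were not measured here. Of these 8 markers 1 was called by limma, Mbl2, named after its value was seen, against 0.321% of all probe sets. With the replicate block 0 of the 8 were called, against 0% of probe sets. An unadjusted limma p under 0.05 was reached by 3 of the 8, against 2.97% of probe sets. The differences ran from -0.61 to 2.74. Averaged over each list's markers, the arrays lay between 10.85 and 11.07 in diabetic and between 10.20 and 10.85 in wildtype liver for hepatocytes. This average takes in the marker with the difference of 2.74. Over the 8 hepatocyte markers the median difference was 0.15, with 5 higher and 3 lower in diabetic liver. For macrophages the arrays lay between 5.59 and 6.36 in diabetic and between 5.74 and 6.17 in wildtype liver. Above the array median lay 3 of 4 measured stellate and nerve markers, 3 of 4 endothelial ones, 4 of 6 for macrophages and 1 of 5 for lymphocytes, with 0 called in each of these 4 lists, and no cholangiocyte marker was analysed here. In whole liver, fewer cells of a type and less RNA per cell cannot be told apart.

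**Figure D1:**
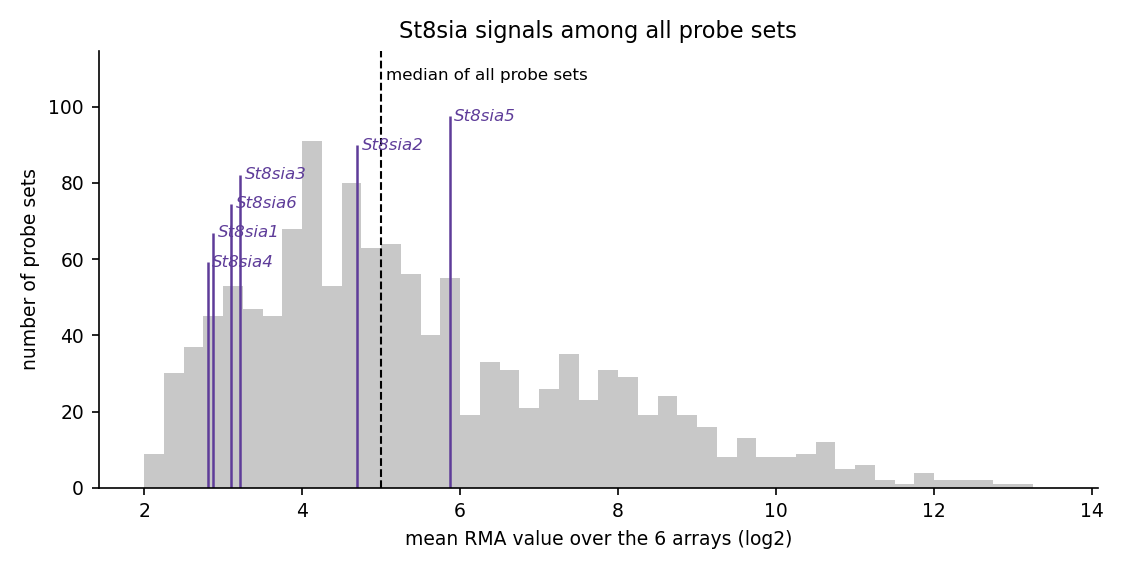
Histogram of the mean RMA value (log2) of all 1246 probe sets over the 6 arrays, with the 6 St8sia probe sets as purple lines and the median of all probe sets as a dashed line. St8sia5 lies above the median, St8sia2 just below it and the other members near the dim end; the heights of the purple lines carry no value.

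The signals of the members came in a stable order. St8sia5 was brightest, with a mean over the 6 arrays of 5.87, above 810 of the 1246 probe sets. St8sia2 followed at 4.70, above 547 probe sets, and the remaining members lay at 3.22 for St8sia3, 3.10 for St8sia6, 2.88 for St8sia1 and 2.80 for St8sia4. The brightest pair was separated on every array, by 0.95 to 1.43 on the log2 scale, and St8sia2 exceeded St8sia3 by 1.13 to 1.86. Among the other 4, the ranges of neighbours overlapped, although the order held on all 6 arrays for St8sia3 over St8sia6 and for St8sia6 over St8sia1, and on 5 of 6 for St8sia1 over St8sia4. This is an order of probe set signals: probes differ in how strongly they bind, so it does not rank the amounts of transcript. The probe sets of St8sia1, St8sia5 and St8sia6 carry the suffix that Affymetrix gives to probes shared by several transcripts, which can add signal from elsewhere.

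The other sialyltransferases of the same arrays covered a wider span of signals. Above the array median lay 1 of 6 St8sia genes, against 6 of the 13 measured St3gal, St6gal and St6galnac genes. The median percentile among all probe sets was 12.3 for the St8sia family and 41.9 for these, a description of probe signals with no test.

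The polysialic acid synthases are St8sia2, also called STX, and St8sia4, also called PST. St8sia2 is known mainly from the developing brain, and St8sia4 also from immune cells. St8sia4 read 2.97, 2.79 and 2.92 in diabetic livers 1, 2 and 3, against 2.69, 2.66 and 2.79 in wildtype livers 1, 2 and 3. The groups touched at 1 point, diabetic 2 and wildtype 3, where the lowest diabetic minus the highest wildtype value was -0.0017. The means were 2.89 ± 0.09 in diabetic livers and 2.71 ± 0.07 in wildtype livers (SD, n = 3 each), a 1.13-fold ratio with a 95% confidence interval of 0.984 to 1.31. The unadjusted limma p was 0.0735, the lowest in the family. Under eBayes with trend and robust it was 0.032, a level passed by 3.53% of all probe sets, with an adjusted p of 0.947. Diabetic exceeded wildtype in 3 of 3 arrays of the same replicate number, and leaving out 1 array gave differences from 0.14 to 0.24, with 0.16 without wildtype 2. Both groups lay so near the low end of the array, above only 84 probe sets by their common mean, that the size of this difference is poorly measured.

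St8sia2 read 4.38, 4.66 and 4.76 in diabetic livers 1, 2 and 3, against 4.65, 4.88 and 4.86 in wildtype livers 1, 2 and 3. Diabetic 1 lay below all other arrays, while diabetic 2 and diabetic 3 lay above wildtype 1, so the groups overlapped. The means were 4.60 ± 0.20 in diabetic livers and 4.80 ± 0.13 in wildtype livers (SD, n = 3 each). The difference of -0.20 had an SE of 0.13 and a 95% confidence interval of -0.50 to 0.10 (limma adjusted p = 0.928). It was -0.09 without diabetic 1, -0.28 without diabetic 3 and -0.16 without wildtype 2. Within each replicate number the diabetic array was the lower one, with differences of -0.28, -0.22 and -0.10 for numbers 1, 2 and 3, and limma with a replicate block gave an unadjusted p of 0.0621 and an adjusted p of 0.822.

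**Figure D2:**
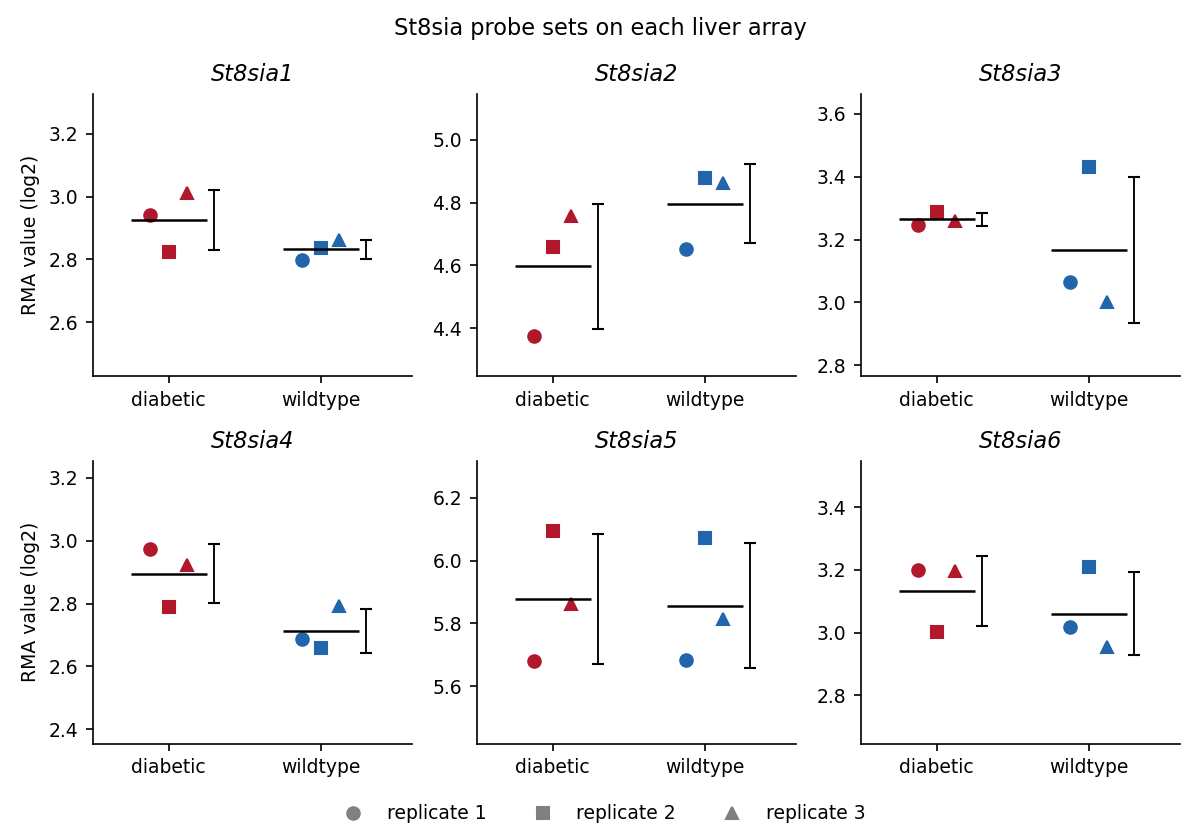
RMA values (log2, vertical axis, each panel spanning the same number of units) of the 6 St8sia probe sets on each array, diabetic in red and wildtype in blue; symbols give the replicate number, horizontal lines the group means and bars beside them the SD (n = 3 per group). The groups overlap in every panel, and the St8sia5 values sort by replicate number, as do those of 7.62% of all probe sets.

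The ganglioside enzymes are St8sia1 and St8sia5. St8sia1 is GD3 synthase, which adds the second sialic acid to ganglioside GM3 and so opens the b-series of gangliosides. It read 2.94, 2.82 and 3.01 in diabetic livers 1, 2 and 3, against 2.80, 2.84 and 2.86 in wildtype livers 1, 2 and 3. Diabetic 1 and diabetic 3 lay above every wildtype array and diabetic 2 among them. The means of 2.92 ± 0.09 in diabetic livers and 2.83 ± 0.03 in wildtype livers (SD, n = 3 each) differed by 0.09 (SE 0.08, 95% confidence interval -0.10 to 0.29, limma adjusted p = 0.942). The difference ran from 0.05 without diabetic 3 to 0.14 without diabetic 2, and was 0.10 without wildtype 2.

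St8sia5 makes the more highly sialylated gangliosides and is known from brain. It read 5.68, 6.09 and 5.86 in diabetic livers 1, 2 and 3, against 5.68, 6.07 and 5.81 in wildtype livers 1, 2 and 3. The group means of 5.88 ± 0.21 in diabetic livers and 5.86 ± 0.20 in wildtype livers (SD, n = 3 each) differed by 0.02, with a 95% confidence interval of -0.33 to 0.37 (limma adjusted p = 0.99). The sign of this difference was not stable: it was -0.086 without diabetic 2 and 0.13 without wildtype 2. With all arrays it was 0.05 after quantile normalization and 0.07 with array weights.

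The St8sia5 values ordered by replicate number. Arrays of the same number differed by at most 0.048 between diabetic and wildtype, while the means of the numbers spanned 0.40, with number 2 highest and number 1 lowest. It was the only member for which the 3 numbers did not overlap, a pattern shown by 95 of 1246 probe sets, or 7.62%. Beside that share, 1 of 6 members says little about St8sia5 or the family. What a shared number stands for is not given in the labels. With the replicate number as a block the SE of the St8sia5 difference was 0.072, against 0.15 without it, which restates the same ordering. The block cannot move the difference, and the call did not change (limma adjusted p = 0.977). A batch common to arrays of a number was not tested.

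St8sia3 and St8sia6 are the remaining enzymes. St8sia3 adds 1 or a few sialic acids to glycolipids and glycoproteins and is known from brain. It read 3.25, 3.29 and 3.26 in diabetic livers 1, 2 and 3, against 3.07, 3.43 and 3.00 in wildtype livers 1, 2 and 3. The diabetic arrays lay close together, and wildtype 2 lay above them while the other wildtype arrays lay below. The means of 3.26 ± 0.02 in diabetic livers and 3.17 ± 0.23 in wildtype livers (SD, n = 3 each) differed by 0.10 (95% confidence interval -0.20 to 0.40, limma adjusted p = 0.975). Without wildtype 2 the difference was 0.23, with an unadjusted limma p of 0.0358 and an adjusted p of 0.995. In that fit 39 of the 1246 probe sets had an unadjusted p under 0.05. Without wildtype 3 the difference was 0.02, so the size rested on which wildtype array was kept.

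St8sia6 makes a disialic acid group, mainly on O-linked chains of glycoproteins. It read 3.20, 3.00 and 3.20 in diabetic livers 1, 2 and 3, against 3.02, 3.21 and 2.95 in wildtype livers 1, 2 and 3. Wildtype 2 was the highest array of all and wildtype 3 the lowest, with the diabetic values between them. The means of 3.13 ± 0.11 in diabetic livers and 3.06 ± 0.13 in wildtype livers (SD, n = 3 each) differed by 0.07 (95% confidence interval -0.18 to 0.32, limma adjusted p = 0.975). It was 0.15 without wildtype 2 and 0.02 without wildtype 3. Like St8sia1 and St8sia3, it was higher in diabetic liver for replicate numbers 1 and 3 and lower for number 2.

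Over the family, 5 of 6 members had a higher and 1 a lower mean in diabetic liver, with a median difference of 0.08, beside 630 higher, or 50.6%, and 616 lower and a median of 0.002 over all 1246 probe sets. The limma fit called 0 of 6 members at an adjusted p under 0.05, where it called 0.321% of all probe sets, 4 in number and all higher in diabetic liver. At an unadjusted p under 0.05 it gave 0 of 6 members, against 2.97% of probe sets. The groups were free of overlap in 0 of 6 members, against 7.87% of probe sets. With the replicate number as a block 0% of probe sets were called, and 0 of 6 members, while 4.33% of probe sets and 0 of 6 members had an unadjusted p under 0.05. With so few members and so low a background, counts of 0 say little about the family.

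**Figure D3:**
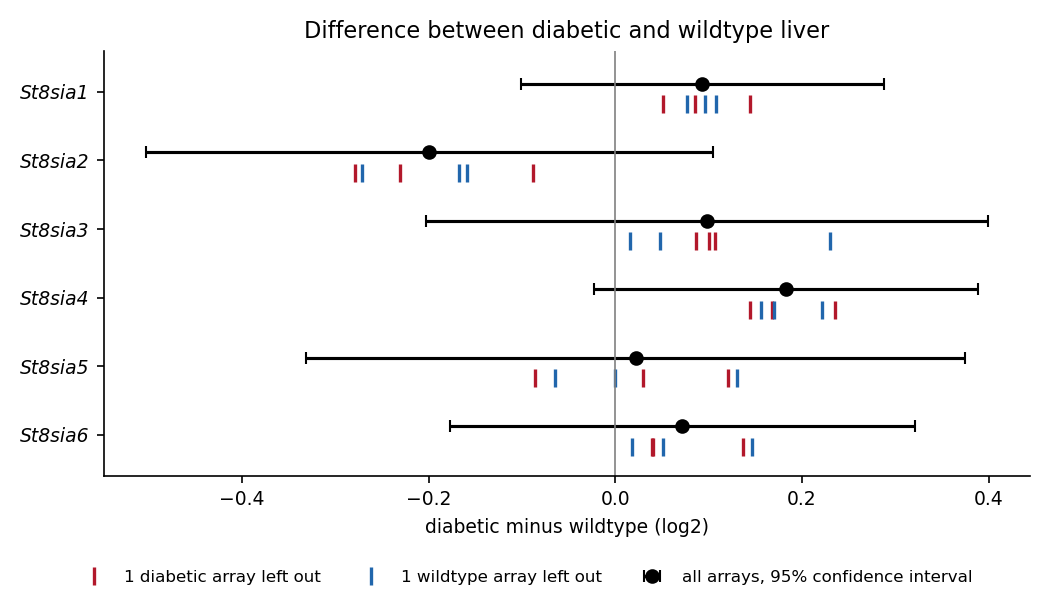
Difference between diabetic and wildtype liver (log2, horizontal axis) for each St8sia gene; black points are limma estimates from all 6 arrays with 95% confidence intervals, and ticks below them are the estimates with 1 diabetic (red) or 1 wildtype (blue) array left out. All 6 intervals include 0, and the ticks of St8sia5 lie on both sides of it.

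The precision sets what could have been seen. All 6 intervals excluded a rise or a fall of 1 on the log2 scale, and all 6 excluded a rise of 0.5, while 5 of 6 excluded a fall of 0.5, the exception being St8sia2, whose interval reached -0.503. For the members near the dim end, narrow intervals do not show that the transcript was unchanged. The spread within groups, as a pooled SD, was 0.07 for St8sia1, 0.08 for St8sia4, 0.12 for St8sia6 and 0.16 for St8sia3. It was 0.17 for St8sia2 and 0.20 for St8sia5, beside a median of 0.14 over all probe sets.

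The genes that supply and use the same sugar were described beside the family. Of 7 measured genes of sialic acid supply, 3 had higher and 4 lower means, with 0 called and a median difference of -0.04. Gne, the enzyme that starts sialic acid synthesis, differed by 0.18 and turned to -0.05 without diabetic 3. Cmas, which makes CMP-sialic acid, differed by -0.14, and by 0.04 without wildtype 3. Slc35a1, which carries CMP-sialic acid into the Golgi, differed by -0.04, with a range from -0.23 without wildtype 3 to 0.06 without wildtype 2 and -0.06 after quantile normalization. Renbp, an epimerase and renin-binding protein, differed by -0.14 (-0.07 without wildtype 1), and Npl, which breaks down free sialic acid, by 0.09 (0.02 without wildtype 1).

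Among the 13 other sialyltransferases, 7 had higher and 6 lower means, with 0 called and a median of 0.01. St6galnac3, which acts on gangliosides and glycoproteins, read 3.61 ± 0.07 in diabetic livers and 3.88 ± 0.10 in wildtype livers (SD, n = 3 each), a difference of -0.27 with no overlap of the groups and an adjusted p of 0.928 (limma). St6galnac2, also without overlap, differed by -0.25 (-0.10 without wildtype 3, -0.32 without wildtype 1). St3gal3 differed by -0.24 (-0.09 without wildtype 2, -0.44 without wildtype 1). St6galnac3, St6galnac2 and St3gal3 were named for the smallest unadjusted p of their list, and 7.87% of all probe sets had no overlap. St3gal5 makes GM3, the substrate of St8sia1. It read 10.95, 10.28 and 11.29 in diabetic livers 1, 2 and 3, against 10.10, 9.25 and 11.55 in wildtype livers 1, 2 and 3. Its difference of 0.54 was 0.015 without wildtype 2 and 1.16 without wildtype 3.

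**Figure D4:**
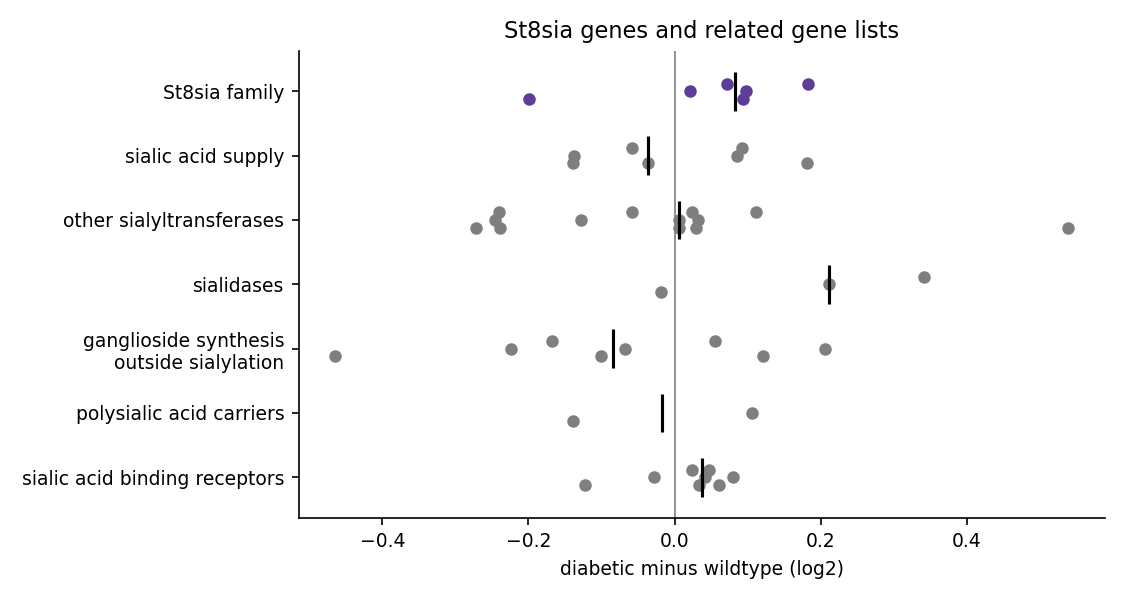
Difference between diabetic and wildtype liver (log2, horizontal axis) for each measured St8sia gene (purple) and each measured gene of 6 related lists (grey), with the median of each list as a black bar; vertical scatter within a list carries no value. The St8sia differences lie between -0.20 and 0.18, inside the span of the other sialyltransferases, which reaches from -0.27 to 0.54. That upper end is St3gal5 alone, and the next highest of these genes lies at 0.11, below St8sia4.

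Sialidases remove sialic acid. Neu1, the lysosomal sialidase, read 8.07 ± 0.02 in diabetic livers and 7.86 ± 0.09 in wildtype livers (SD, n = 3 each), a difference of 0.21 with no overlap of the groups and an adjusted p of 0.928 (limma). The unadjusted limma p of Neu1 was 0.0358, and 0.201 under eBayes with trend and robust. After quantile normalization the Neu1 difference was 0.13, with an unadjusted limma p of 0.186. Neu1 is among the genes named for a small p, and 7.87% of all probe sets had no overlap. Neu2, the cytosolic sialidase, differed by 0.34 (0.21 without wildtype 2, 0.55 without wildtype 1) and the membrane sialidase Neu3 by -0.02 (-0.04 with array weights). Of these 3 genes 0 were called.

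Of 8 measured enzymes of ganglioside synthesis outside sialylation, 3 had higher and 5 lower means, with 0 called and a median of -0.08. B3galt4, which adds galactose in the ganglio series, read 5.41 ± 0.10 in diabetic livers and 5.21 ± 0.07 in wildtype livers (SD, n = 3 each). Its difference was 0.21 with no overlap of the groups (limma adjusted p = 0.928), as in 7.87% of all probe sets. B3galt4 too was named for a small p. B4galnt1, which builds complex gangliosides from the simple ones, differed by -0.17 (-0.04 without wildtype 2, -0.31 without wildtype 3). B4galt5, a lactosylceramide synthase, differed by -0.46 (-0.18 without wildtype 1, -0.78 without wildtype 3). Ugcg, the glucosylceramide synthase, differed by -0.22 (-0.11 without diabetic 1, -0.42 without diabetic 3).

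Carriers and readers of the product were covered in part. Of 7 listed carriers of polysialic acid or related genes, 2 were measured, and Ncam1 itself was not analysed here. Ccr7, a chemokine receptor of immune cells that can carry polysialic acid, differed by -0.14 (-0.05 without wildtype 2). Of 8 sialic acid-binding receptors, 6 had higher and 2 lower means, with 0 called and a median of 0.04. Mag, a myelin receptor for gangliosides, differed by -0.12 (-0.21 without diabetic 2, -0.07 without diabetic 3). Siglecf, of eosinophils, differed by 0.08 (0.01 without wildtype 1, 0.04 after quantile normalization). Siglecg, of B cells, differed by 0.06 (0.03 without diabetic 2).

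The genes whose values ran most like a member's over the 6 arrays are given as a description. They were Clec4b1 and Cog4 for St8sia1 (Pearson r = 0.913 and 0.911), Muc20 and Klra7 for St8sia2 (0.973 and 0.972), Dag1 and Il17rb for St8sia3 (0.965 and 0.963), Fut8 and Naa60 for St8sia4 (0.955 and 0.933), Muc1 and Ctsa for St8sia5 (0.972 and 0.964) and Pomgnt1 and Ovgp1 for St8sia6 (0.934 and 0.926). With 6 arrays and 909 genes such values are ordinary: the highest r of a gene with any other gene had a median of 0.971.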

How the data were processed

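Liver RNA of 3 diabetic and 3 wildtype male mice was measured with 1 sample per array. The deposited values are log2 expression values made with RMA, per the submitters' processing notes with no version or settings. They ran from 2.03 to 13.4. Of 984 probe sets with a RefSeq accession, 963 matched a gene in RefSeq's table for GRCm38.p6, which served for names only. A gene with several probe sets was represented by the one with the highest mean; each St8sia gene had 1.

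Differences, diabetic minus wildtype, came from a two-sided limma test (version 3.58.1 in R 4.3.3; lmFit, eBayes) over all 1246 probe sets, called at a Benjamini-Hochberg adjusted p under 0.05. Residual degrees of freedom were 4 and prior ones 2.44. The script was tested on simulated data. The labels do not say that each array is a separate animal; p-values otherwise measure only the spread between these samples.

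The groups share replicate numbers 1 to 3. Each array's deviations from its group mean correlated at 0.397, 0.138 and 0.162 for arrays sharing numbers 1, 2 and 3, all over the limit of 0.1, so a fit with the number as a block was run beside the other; this pairing comes from the data and the shared numbers.

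The members and the related lists were chosen with earlier results of these data known. Genes named from a list were its 3 with the smallest unadjusted p and 7 set genes, of which Ncam1 was not analysed here; 1 gene so chosen is not reported here; likewise 2 genes most like each member. Alternatives were a median shift, quantile normalization, leaving out dimmer probe sets, eBayes with trend and robust, an ordinary linear model, array weights, the block, an adjusted p threshold of 0.10, and leaving out each array. The number of arrays limits the precision.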

Additional observations from a re-analysis of the deposited data

How the results depend on the processing

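Over 73 refits of the 6 members, 0 were called by limma, with adjusted p between 0.761 and 0.999. The direction held in all refits of St8sia1, St8sia2, St8sia3, St8sia4 and St8sia6. St8sia5 turned to -0.086 without diabetic 2, to -0.065 without wildtype 1 and to -0.0002 without wildtype 3, and its highest value was 0.13. The median difference over the members stayed between 0.017 and 0.14 with 1 array left out. The members other than St8sia5 fall out when dimmer probe sets are removed, and no such value exists for them or for the median. An unadjusted p under 0.05 arose for St8sia4 with eBayes trend and robust (0.032) and without diabetic 2 (0.0476), and for St8sia3 without wildtype 2 (0.0358). In these fits 44, 32 and 39 of all probe sets had such a p, in that order. Each member has 1 probe set, so the planned runs with other probe sets could not be made. The count of called probe sets, 4, was 0 with the replicate block, the ordinary linear model and eBayes trend and robust, where 54, 50 and 44 had an unadjusted p under 0.05, and 0 to 1 with 1 array left out. The block changed the call of no member and of no related gene named here, while the hepatocyte marker Mbl2 lost its call with it. Among 21 related genes, 4 changed direction, all with 1 array left out: Cmas ranged from -0.23 to 0.042, Gne from -0.049 to 0.40, Slc35a1 from -0.23 to 0.063 and Neu3 from -0.070 to 0.059. The cause of these changes was not tested. Scaling moved the median of all probe sets to between -0.0016 and 0.009. Signal over background limits the members near the dim end.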
